A study of Mus musculus with 2 samples.

Results

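Cycling insulin-expressing cells were examined in single cell RNA sequencing of islets from mice aged 2 weeks. A cell was a member when insulin transcripts (*Ins1* + *Ins2*) were the largest of the islet hormones and at least 10% of its unique molecular identifiers (UMIs, each standing for 1 captured transcript molecule), and when *Mki67* and *Top2a* together had at least 3 UMIs. By this rule 187 cells were members, of 3659 insulin-leading cells, of 8897 barcodes that passed the cell filters and of 16215 deposited barcodes. The WT library held 99 members of 1833 insulin-leading cells, and the *Npc1*-/- library held 88 of 1826. They were compared with the 3276 insulin-leading cells that had 0 UMIs of both genes (1635 in WT and 1641 in *Npc1*-/-), called 0-UMI cells here. The remaining 196 insulin-leading cells, with 1 or 2 UMIs, were kept apart.

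There were 2 libraries, 1 of WT and 1 of *Npc1*-/- islet cells, each made from the islets of 3 female mice by the series description. *Npc1*-/- mice, on a C57BL/6J background, lack NPC1, a lysosomal membrane protein that moves cholesterol out of the lysosome, in all tissues from conception, and WT were littermates from the same heterozygous matings. No difference between genotypes therefore has a replicate check, and the 95% intervals given for them cover counting error only. The difference between cycling and 0-UMI cells was present in both libraries, which served as its 2 replicates. Members held 3290574 UMIs in WT and 2709201 in *Npc1*-/-, and 0-UMI cells held 48397408 and 48484666. Of the barcode sequences, 12 occurred in both libraries, and 0 of these belonged to a member.

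Pancreatic β cells of rodents divide mainly in fetal and early postnatal life, and division becomes rare in adults as the cells gain their mature response to glucose. A dividing cell passes from growth through DNA replication to mitosis, and E2F factors drive the replication genes while later transcription by the MuvB complex with B-MYB and FOXM1 drives the mitotic genes. *Mki67* encodes the chromosome surface protein Ki-67 and *Top2a* the topoisomerase that untangles replicated chromosomes, and both are transcribed mostly from replication to mitosis, so that cells early in the cycle can lack them.

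The genes that chose the cells are given as a description. *Mki67* (chr7:135689784-135716361, minus strand, GRCm38) stood at 354 CPM (UMIs of the gene scaled to 1000000 UMIs per sum) in the summed WT members and 431 CPM in *Npc1*-/- members. *Top2a* (chr11:98992943-99024189, minus strand) stood at 409 and 441 CPM. The median member had 24 UMIs of both in WT (range 3 to 108) and 18 in *Npc1*-/- (3 to 125). Members therefore lay mostly far above the threshold, with 56 of the 99 WT and 39 of the 88 *Npc1*-/- members at 20 UMIs or more. Just inside the threshold, at 3 UMIs, were 4 WT and 8 *Npc1*-/- cells, in which the mitotic, kinetochore and spindle genes together reached 2222 and 2013 CPM. Just outside it, at 2 UMIs, were 13 and 12 cells, with 1964 and 1122 CPM. The same genes summed to 581 and 517 CPM in 0-UMI cells, so that the cells beside the threshold lay between the 0-UMI cells and the bulk of the members on both sides of it.

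Markers not used by the rule went with the label. *Ube2c* (chr2:164769898-164778822, plus strand), the ubiquitin-conjugating enzyme that works with the anaphase-promoting complex, stood at 0.703 CPM in WT and at 0.701 CPM in *Npc1*-/- 0-UMI cells and at 591 and 538 CPM in members. *Cenpf* (chr1:189640606-189688086, minus strand), a kinetochore protein, stood at 1.16 and 0.722 CPM against 375 and 493 CPM. At least 1 UMI of *Ube2c* was seen in 81.8% of WT and 77.3% of *Npc1*-/- members and in 2.08% and 2.07% of 0-UMI cells. With every cell reduced at random to 10000 UMIs (94 and 86 members and 1558 and 1544 0-UMI cells were deep enough), the shares were 70.2% and 67.4% against 0.899% and 0.712%. *Cenpf* was found in 91.9% and 87.5% of members, and 6 WT and 8 *Npc1*-/- members had neither gene. *Npc1* itself was low, at 5.77 CPM in WT and at 3.32 CPM in *Npc1*-/- members and 5.81 and 2.496 CPM in 0-UMI cells, so it was below the limit for testing. The counts do not show which part of the gene its UMIs came from.

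**Figure D1:**
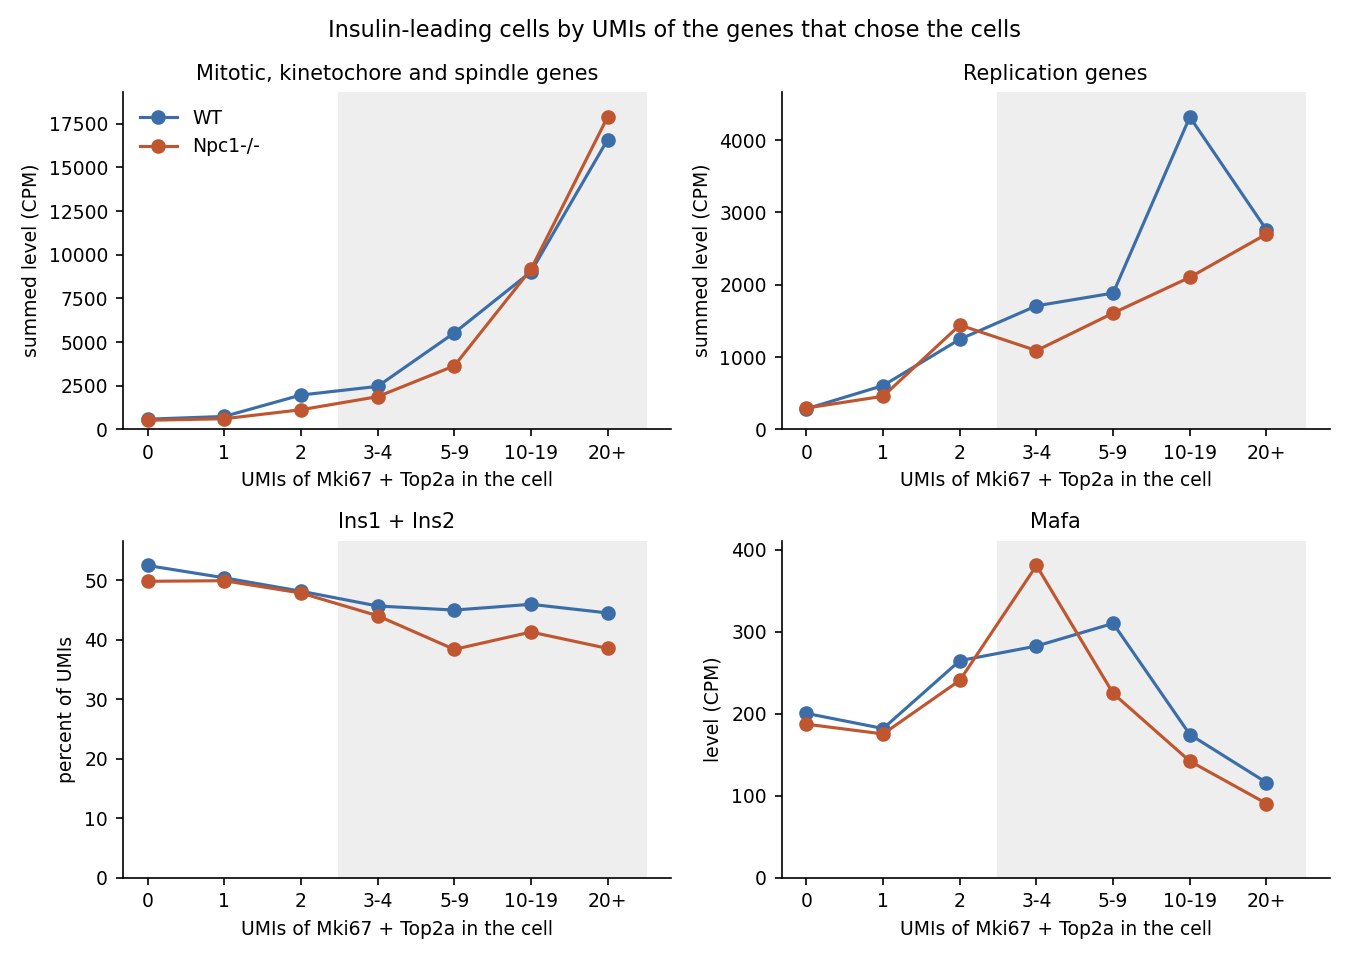
Insulin-leading cells of the WT (blue) and *Npc1*-/- (orange) libraries grouped by their UMIs of *Mki67* + *Top2a* (x axis, members shaded), with the summed level of the mitotic, kinetochore and spindle genes, of the replication genes and of *Mafa* in CPM, and insulin as percent of UMIs (y axes, from 0). The mitotic genes climbed from 581 and 517 CPM at 0 UMIs to 16587 and 17883 CPM at 20 or more, the replication genes were highest at 10 to 19 UMIs in WT and at 20 or more in *Npc1*-/-, and *Mafa* was lowest at 20 or more in both.

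Among members, the sums for mitosis and for replication varied widely and apart. The mitotic, kinetochore and spindle genes took a median of 138 UMIs per 10000 in WT (range 7.57 to 307) and 108 in *Npc1*-/- (4.36 to 332), against 5.59 and 4.93 in 0-UMI cells, none of which reached the median of its library's members. The replication genes took a median of 27.0 per 10000 in WT members (1.001 to 74.4) and 16.2 in *Npc1*-/- members (0.907 to 69.7), against 2.38 and 2.44 in 0-UMI cells. Replication UMIs outnumbered mitotic UMIs in 5 WT and 4 *Npc1*-/- members. Across members the 2 sums had a Spearman rho of -0.07 in WT (n = 99) and 0.23 in *Npc1*-/- (n = 88), as a description of cells that share a library and a depth. Cells with much replication but little *Mki67* or *Top2a* also lay outside the class, since 30 WT (1.83%, 95% Clopper-Pearson interval 1.24 to 2.61) and 38 *Npc1*-/- 0-UMI cells (2.32%, 1.64 to 3.16) had at least 10 replication UMIs per 10000, a limit chosen after the values were seen. With at least 20 per 10000 there were fewer, 4 WT (0.245%) and 8 *Npc1*-/- 0-UMI cells (0.488%). The 0-UMI cells are thus not a pure set of resting cells.

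Members were 5.40% of insulin-leading cells in WT (4.41 to 6.54) and 4.82% in *Npc1*-/- (3.88 to 5.90). The ratio of *Npc1*-/- to WT was 0.892 with a conditional binomial interval of 0.662 to 1.20, so a difference in the share was not detectable at this depth. The same 3 UMIs were found in 9.03% of WT and 9.40% of *Npc1*-/- glucagon-leading cells, at lower median depths of 17108 and 19101 UMIs against 30417 and 30094. In somatostatin-leading cells they were found in 3.50% (1.42 to 7.08) and 2.61% (0.717 to 6.56), the lowest shares among the hormone classes, at medians of 14411 and 15846 UMIs. Each of these classes can divide at this age, so none is a class known to lack the genes.

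Depth and membership went together. The median member had 37192 UMIs and 4953 genes in WT and 31858 UMIs and 4987 genes in *Npc1*-/-, against 30242 UMIs and 4103 genes and 30089 UMIs and 4294 genes in 0-UMI cells. The share of members was 2.57% in WT and 3.29% in *Npc1*-/- among cells of 20000 to 30000 UMIs, and 3.35% and 2.94% at 30000 to 40000. It was 20.3% (14.9 to 26.7) and 11.0% (7.36 to 15.6) at 40000 to 50000 UMIs, so in WT cycling cells were most frequent among the deepest cells that the rule admits. In *Npc1*-/- the highest share was at 10000 to 20000 UMIs (13.1%, 7.81 to 20.1), where WT had 10.2% (5.37 to 17.1). The filter on cells ends at 50000 UMIs, and above it lay 153 insulin-leading WT barcodes, of which 32 (20.9%, 14.8 to 28.2) would have met the rule, and 343 *Npc1*-/- barcodes, of which 38 (11.1%, 7.96 to 14.9) would have. Whether barcodes above this limit hold 1 cell or several was not tested. At a fixed depth of 20000 UMIs, with 2 UMIs required, the shares were 5.16% and 4.33%.

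**Figure D2:**
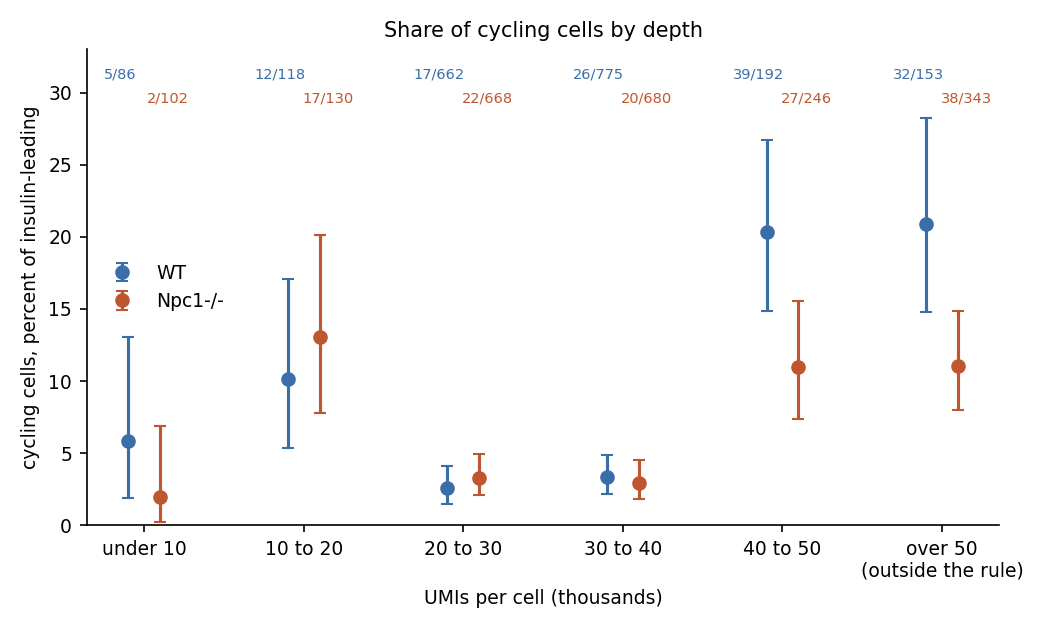
Percent of insulin-leading cells that were cycling (y axis) by UMIs per cell (x axis, in units of 1000) in the WT (blue) and *Npc1*-/- (orange) libraries, with 95% Clopper-Pearson intervals and, above, members of cells. The share was between 2.57% and 3.35% from 20000 to 40000 UMIs and was 20.3% and 11.0% at 40000 to 50000.

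A few members carried transcripts of another cell type, each from 1 or a few barcodes. One WT member held 2274 of the 2291 *Ctrb1* UMIs of all WT members, and *Ctrb1* encodes chymotrypsinogen of exocrine acinar cells. One WT member held 7103 of the 8683 *Gcg* UMIs (81.8%). In the *Npc1*-/- library 4 members had 20 or more UMIs of the stellate cell markers, and *Col1a1* was found in 3 members. Counting barcodes with at least 20 UMIs of acinar, endothelial, stellate, lymphocyte or Schwann cell markers, or at least 1000 UMIs of *Gcg* or of *Sst*, 4 WT members (4.04%) and 9 *Npc1*-/- members (10.2%) were mixed, against 5.63% and 4.88% of 0-UMI cells. Both limits were chosen with the values in view, and the genotype comparison below is also given without mixed barcodes. Summed over members, the acinar markers reached 1538 CPM in WT and 16.98 in *Npc1*-/- (0-UMI cells 26.7 and 23.9), with *Ctrb1* most abundant at 696 and 8.49 CPM, and the stellate markers 1.22 and 122 CPM (29.4 and 20.5), with *Rgs5* most abundant in WT at 0.912 CPM and *Col3a1* in *Npc1*-/- at 41.3 CPM. The alpha markers reached 3193 and 8260 CPM (4209 and 3197), with *Gcg* most abundant, and without the mixed barcodes *Gcg* stood at 458 and 483 CPM. Delta markers, led by *Sst*, summed to 2231 and 2651 CPM (2028 and 2280) and PP cell markers, led by *Pyy*, to 7563 and 15017 CPM (9801 and 17173). Endothelial markers summed to 4.56 and 19.2 CPM (23.4 and 35.0), macrophage markers to 34.3 and 38.4 (26.7 and 44.3), ductal markers to 192 and 249 (135 and 133), red blood cell markers to 8.51 and 5.54, Schwann cell markers to 2.13 and 5.17, and lymphocyte markers to 3.34 and 1.48, with *Cd3e*, *Ighm* and *Trbc2* at 0 in members of both libraries.

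Cycling cells differed from 0-UMI cells across a large part of the transcriptome. UMIs were summed per library and class and tested with edgeR's quasi-likelihood test with the library as a term. Of 9082 genes with a mean of at least 5 CPM, with *Mki67* and *Top2a* left out, 2287 rose (25.2%) and 1909 fell (21%) at an adjusted p under 0.05, and 888 (9.78%) rose and 219 (2.41%) fell by at least 2-fold. The median change was -0.01 on the log2 scale. The hormone genes that the rule also used are among those tested. The counts of list members called below are to be read against these shares. The limit of 5 CPM is on the mean over libraries and classes, so a gene low in 0-UMI cells can pass it through cycling cells alone. For such genes, as *Cdk1* and *Rrm2* below, the limit favours a rise. Since 1 residual degree of freedom was left, the fit gave genes of like level a common spread, and it is not a test of whether the libraries agree gene by gene. The change had the same sign in both libraries for 2241 of the risen and 1904 of the fallen genes, and exceptions such as *Ctrb1* and *Col1a1* rested on mixed barcodes. DESeq2 called 1378 risen and 810 fallen genes. Without mixed barcodes the counts of the gene lists below moved by at most 1 gene in each direction, except that 12 respiratory chain genes rose in place of 10 and 1 disallowed gene in place of 3.

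The 12 largest rises among genes of at least 20 CPM were *Esco2*, *Hmmr*, *Ube2c*, *Pimreg*, *Birc5*, *Tpx2*, *Pbk*, *Nek2*, *Ccnb2*, *Ndc80*, *Aurkb* and *Ska1*. All of them act in sister chromatid cohesion, the spindle, the kinetochore or mitotic control, and they share the programme of the 2 genes that chose the cells, so their rise describes the class. *Birc5*, the survivin subunit of the chromosomal passenger complex, went from 0.496 to 274 CPM in WT and from 0.309 to 273 CPM in *Npc1*-/-. *Hmmr*, a spindle protein, went from 0.0413 to 141 CPM and from 0.165 to 134 CPM. The levels in members were alike in the libraries, while the levels in 0-UMI cells rested on few UMIs.

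The mitotic programme was raised as a whole. Of 28 mitotic kinases, cyclins and their regulators, 27 rose and 0 fell, with a median log2 change of 7.96. They summed to 198 and 184 CPM in 0-UMI cells, of which *Ube2s* alone took 135 and 128 CPM. Most of the others passed the limit on the mean level through cycling cells, so the limit partly set this count. *Cdk1*, the kinase that starts mitosis, went from 1.20 to 365 CPM in WT and from 0.701 to 327 CPM in *Npc1*-/-, and its partner *Ccnb1* from 0.434 to 116 and from 0.144 to 122 CPM. *Pttg1*, securin, which holds separase until anaphase, was the member not called, at 10.3 and 10.6 CPM in WT and 10.8 and 13.7 CPM in *Npc1*-/-. All 24 kinetochore and centromere genes rose (median 6.08) and so did all 30 genes of the spindle, its motors and cytokinesis (median 7.38). *Stmn1*, which regulates microtubule assembly, went from 6.65 to 1530 CPM in WT and from 5.78 to 1409 CPM in *Npc1*-/-. *Spc25*, a subunit of the NDC80 complex, was already present in 0-UMI cells at 70.0 and 51.4 CPM against 805 and 662 CPM in members. It lies at chr2:69193895-69206194, beside *G6pc2* at chr2:69211073-69227841 on the other strand, and the genes do not overlap.

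Replication genes rose less steeply. All 41 tested members of 43 replication licensing and DNA synthesis genes rose, with a median log2 change of 3.48. Some, such as *Rrm2*, passed the limit on the mean level through cycling cells alone, so the limit partly set this count. *Mcm6*, a subunit of the replicative helicase, went from 6.74 to 50.4 CPM in WT and from 6.72 to 41.3 CPM in *Npc1*-/-. *Pcna*, the sliding clamp of DNA polymerase, went from 8.08 to 73.5 and from 8.99 to 58.0 CPM, and *Rrm2*, the regulated subunit of ribonucleotide reductase, from 1.14 to 70.8 and from 0.949 to 50.9 CPM. All 15 tested genes of DNA repair and checkpoints rose (median 4.89), as did all 25 genes of chromosome structure (median 2.65), among them *H2afz*, a histone variant, from 302 to 2832 CPM in WT and from 289 to 2522 CPM in *Npc1*-/-. The 18 listed repair and checkpoint genes summed to only 27.3 and 34.1 CPM in 0-UMI cells, so the limit partly set their count as well. Of 12 tested replication-dependent histones 9 rose, and values of single histone genes are uncertain because close copies can share reads.

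Promoters of 3 mitotic genes and 2 replication genes are shown to illustrate the motifs, and they were chosen because they hold them. Others of these groups do not, such as *Birc5*, *Nusap1* and *Tyms*, with none of the motifs in these 100 bases, or *Cenpf*, *Ccnb2* and *Mcm3*, with CCAAT boxes alone. Each line is the 100 bases before the annotated start of the gene, on its own strand, from RefSeq (GRCm38.p6), and capitals mark the cell cycle homology region (CHR, TTTGAA or TTTAAA), the CCAAT box (CCAAT) and the E2F motif (TTCCCGC or TTCGCGC) on either strand. Matches of different motifs may overlap at their ends. Gene positions given elsewhere are from GENCODE, whose starts can differ from those of RefSeq. By GENCODE the windows of *Ube2c*, *Ccnb1*, *Cdk1* and *Hells* reach into the gene, so some marked motifs lie inside it. The windows lie at chr2:164769829-164769928 (*Ube2c*, plus), chr13:100786487-100786586 (*Ccnb1*, minus), chr10:69352913-69353012 (*Cdk1*, minus), chr1:128359706-128359805 (*Mcm6*, minus) and chr19:38930890-38930989 (*Hells*, plus), where *Hells* encodes a chromatin remodeller of the replication list.
Ube2c: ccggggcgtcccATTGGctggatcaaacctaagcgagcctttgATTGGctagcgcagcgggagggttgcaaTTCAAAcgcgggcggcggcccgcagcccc
Ccnb1: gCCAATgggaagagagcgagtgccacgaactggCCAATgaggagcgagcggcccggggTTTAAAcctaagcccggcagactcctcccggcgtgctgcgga
Cdk1: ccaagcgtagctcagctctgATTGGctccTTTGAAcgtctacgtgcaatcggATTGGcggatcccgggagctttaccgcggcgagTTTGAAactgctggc
Mcm6: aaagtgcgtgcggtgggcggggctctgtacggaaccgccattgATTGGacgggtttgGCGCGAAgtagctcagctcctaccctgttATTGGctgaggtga
Hells: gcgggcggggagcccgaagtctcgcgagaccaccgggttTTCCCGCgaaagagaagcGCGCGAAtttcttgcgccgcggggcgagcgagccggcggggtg

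Counted over 250 bases before the start, a CCAAT box was in 69.6% of the mitotic, kinetochore and spindle promoters (48 of 69 genes with a promoter, of 82), against 34.5% of all 27025 promoters and 37.0% of those of the genes tested. The share with 2 or more boxes was 42.03% against 10.5% of all. A CHR was in 34.8% against 25.5% of all and 16.6% of the genes tested. Replication promoters had a CCAAT box nearly as often, in 64.7% (22 of 34 with a promoter, of 43 genes), and 2 or more in 35.3%. The E2F motif differed more between the groups, with 44.1% of replication promoters (15 of 34) and 4.35% of the mitotic group, against 5.02% of all and 10.2% of the genes tested. The promoters of the β cell lists had the E2F motif in 5.88% and a CCAAT box in 44.1% (2 and 15 of 34). A match is a description of the letters in this window.

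The regulators that lead into the cycle were split. Of 15 tested G1/S cyclins, kinases and E2F factors, 12 rose and 2 fell. *Ccne1*, cyclin E1, rose from 2.25 to 31.6 CPM in WT and from 1.86 to 22.9 CPM in *Npc1*-/-, and *Cdk4* rose from 79.4 to 177 and from 76.6 to 156 CPM. Both that fell were D-type cyclins, and *Ccnd2* is the main one of postnatal mouse β cells. *Ccnd2* stood at 699 CPM in WT 0-UMI cells and 399 CPM in members, and at 687 and 443 CPM in *Npc1*-/- (edgeR log2 change -0.91 ± 0.06 SE, adjusted p = 2.54e-43). *Ccnd1* stood at 98.2 and 62.9 CPM in WT and at 128 and 85.3 CPM in *Npc1*-/- (-0.81 ± 0.10 SE, adjusted p = 7.29e-16). Both fell in each library, also against depth-matched 0-UMI cells (adjusted p = 3.88e-06 and 6.78e-05).

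Inhibitors of the cycle were mostly higher in cycling cells. Of 16 tested, 9 rose and 2 fell (7 and 1 by DESeq2). *Cdkn2c* (p18) rose from 2.71 to 209 CPM in WT and from 2.45 to 188 CPM in *Npc1*-/-, and *Cdkn2d* (p19) from 16.5 to 222 and from 13.7 to 211 CPM. *Cdkn1a* (p21) rose from 20.1 to 72.6 and from 24.1 to 75.3 CPM, and after thinning to 10000 UMIs it was found in 40.4% and 33.7% of members against 9.88% and 12.4% of 0-UMI cells (64.6%, 61.4%, 18.4% and 20.4% before thinning). *Btg2*, an antiproliferative immediate early gene, fell from 194 to 90.0 CPM in WT and from 104 to 53.2 CPM in *Npc1*-/-. *Cdkn1c* (p57) did not pass the test, at 4.22 and 4.86 CPM in WT and 4.04 and 9.23 CPM in *Npc1*-/-.

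**Figure D3:**
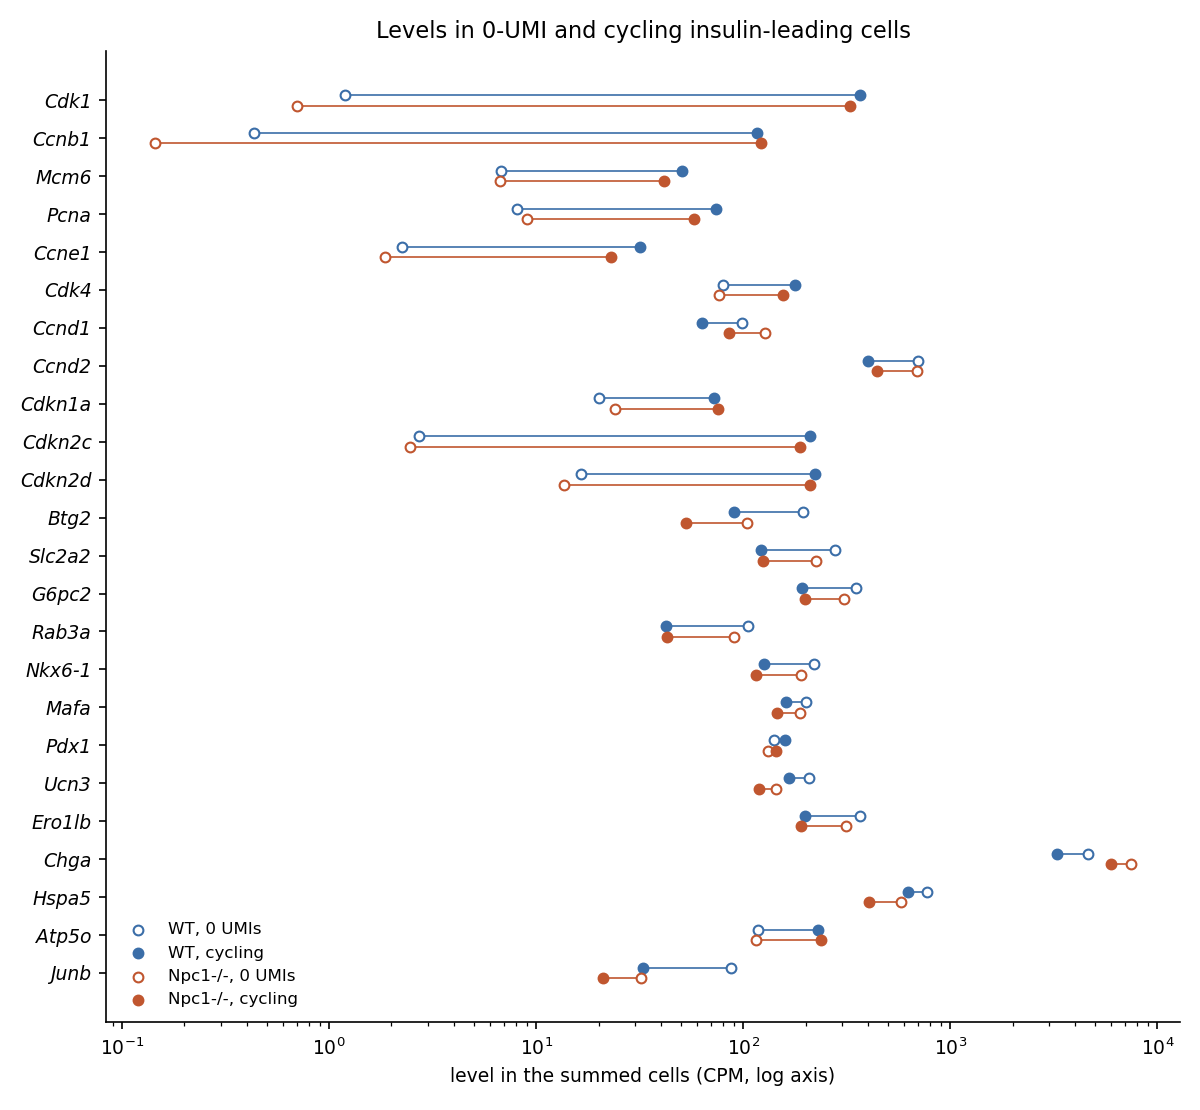
Level in CPM (x axis, log scale) of 24 listed genes in the summed 0-UMI cells (open) and cycling cells (filled) of the WT (blue) and *Npc1*-/- (orange) libraries. The mitotic and replication genes lie to the right in cycling cells, *Ccnd1*, *Ccnd2*, *Btg2*, *Slc2a2*, *Nkx6-1* and *Ero1lb* lie to the left in both libraries, and the points of *Pdx1*, which did not pass the test, are close together.

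Insulin itself took a smaller share of the transcripts of members. Because the rule set a lower limit on insulin, these levels are a description. Insulin was a median of 46.1% of UMIs in WT members (10.3 to 54.9) and 41.7% in *Npc1*-/- members (13.9 to 55.4), against 53.6% and 51.6% in 0-UMI cells. *Ins1* went from 172288 to 143526 CPM in WT and from 164475 to 128839 CPM in *Npc1*-/-, and *Ins2* from 352155 to 304881 and from 333423 to 268144 CPM. Members and 0-UMI cells overlapped over most of this range. Of the other 14 hormone and granule genes, without *Ins1* and *Ins2*, 11 fell and 1 rose, with a median log2 change of -0.43. *Ero1lb*, an oxidase for insulin folding, fell from 365 to 198 CPM in WT and from 315 to 190 CPM in *Npc1*-/- (-0.99 ± 0.07 SE, adjusted p = 5.66e-43). *Chga*, chromogranin A, fell from 4635 to 3264 and from 7456 to 5942 CPM. *Vgf*, a granule peptide precursor, rose from 3.35 to 8.81 CPM and from 4.85 to 16.98 CPM.

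Genes for glucose sensing and excitability showed the most uniform fall outside the cell cycle, with 13 of 16 tested fallen, 0 risen and a median of -0.59. *Slc2a2*, the glucose transporter GLUT2, stood at 279 CPM in WT 0-UMI cells and 122 CPM in members, and at 225 and 125 CPM in *Npc1*-/- (-1.22 ± 0.08 SE, adjusted p = 8.69e-53). *Rab3a*, a GTPase of granule exocytosis, fell from 105 to 42.5 and from 90.4 to 42.8 CPM, and *Gipr*, the receptor for the incretin GIP, from 49.7 to 21.0 and from 55.5 to 26.2 CPM. *Ucn3*, a marker of mature mouse β cells, fell less, from 207 to 166 and from 144 to 119 CPM. *Kcnj11*, a subunit of the ATP-sensitive potassium channel, did not pass the test, at 16.9 and 17.9 CPM in WT and 22.6 and 27.7 CPM in *Npc1*-/-. Against depth-matched 0-UMI cells 12 of the 16 fell, and with DESeq2 also 12.

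The β cell transcription factors did not move as a group. Of 18 tested, 7 fell, 1 rose and 10 were not called, with a median of -0.16, and DESeq2 called 3 fallen. *Nkx6-1* had the largest fall, from 221 to 126 CPM in WT and from 189 to 116 CPM in *Npc1*-/- (-0.95 ± 0.08 SE, adjusted p = 1.48e-30). *Mafa* fell from 200 to 160 and from 187 to 146 CPM. *Pdx1* stood at 140 and 159 CPM in WT and at 132 and 144 CPM in *Npc1*-/- (-0.04 ± 0.08 SE, adjusted p = 0.753). *Insm1*, a factor of endocrine differentiation, rose from 84.5 to 128 and from 86.8 to 125 CPM.

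The fall of *Mafa* and *Ucn3* was not spread evenly over the members. In WT, *Mafa* stood at 283 CPM in members with 3 to 4 UMIs of *Mki67* + *Top2a*, 310 CPM at 5 to 9, 175 CPM at 10 to 19 and 116 CPM at 20 or more. In *Npc1*-/- it stood at 381, 225, 142 and 90.6 CPM. *Ucn3* stood at 258, 160, 197 and 150 CPM in WT and at 182, 157, 148 and 86.4 CPM in *Npc1*-/-. Members near the threshold thus lay at or above the 0-UMI level of *Mafa* in both libraries, and those with most of the cell cycle transcripts lay below it. The cells near the threshold had fewer UMIs (median 28420 in WT and 19500 in *Npc1*-/- at 3 to 4, against 40418 and 39366 at 20 or more), and the part of depth in this was not tested.

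Among the markers of immature and PP-family cells, 3 rose and 2 fell of the 5 tested that the rule for cells did not use. With *Ppy* and *Pyy*, which it did use, 3 rose and 4 fell of 7, while DESeq2 called 2 risen and 2 fallen and depth-matched cells gave 1 and 4. *Sox4*, a factor of endocrine precursors, rose from 56.5 to 92.7 CPM in WT and from 73.0 to 159 CPM in *Npc1*-/-. *Pyy*, peptide YY, is given as a description, and stood at 7315 and 4760 CPM in WT and at 12399 and 10697 CPM in *Npc1*-/-. *Cd79a*, otherwise known from B cells, fell from 55.3 to 7.29 CPM and from 68.8 to 28.8 CPM. The call for *Cd79a* was lost when edgeR estimated its prior robustly, an alternative that lets genes whose libraries disagree keep their own spread (adjusted p = 0.201). *Neurog3* was too low to test, at 2.69 and 1.22 CPM in WT and 4.46 and 1.48 CPM in *Npc1*-/-.

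The 12 largest falls among genes of at least 20 CPM were *Aldoa*, *Cd79a*, *Vwa5b2*, *Rgs16*, *Ckb*, *Lgalsl*, *Mapk15*, *Cldn4*, *Txnip*, *Mxd4*, *Sv2a* and *Endog*. *Aldoa* (ENSMUSG00000030695), a glycolytic aldolase, had the largest, from 157 to 29.8 CPM in WT and from 150 to 43.2 CPM in *Npc1*-/- (-2.28 ± 0.11 SE, adjusted p = 6.00e-100). *Mxd4*, a MAX-binding repressor that opposes MYC, fell from 85.3 to 26.7 and from 85.2 to 43.9 CPM. *Rgs16*, a regulator of G protein signalling, fell from 24.7 to 9.12 and from 37.7 to 11.4 CPM. *Txnip*, which binds thioredoxin and follows glucose, fell from 70.8 to 16.7 CPM in WT and from 203 to 112 CPM in *Npc1*-/-. The libraries differed in the size of its fall, -2.26 and -1.13 on the log2 scale, and its call was lost with the robust prior (adjusted p = 0.304).

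Receptors and signalling of growth factors were more often lower than higher, with 5 of 12 tested fallen and 1 risen (3 and 0 by DESeq2). *Prlr*, the prolactin receptor, fell from 104 to 75.1 CPM in WT and from 85.3 to 62.7 CPM in *Npc1*-/-, and *Igf1r* from 56.7 to 43.5 and from 74.9 to 58.7 CPM. *Insr*, the insulin receptor, did not pass the test, at 9.38 and 6.69 CPM and 13.6 and 12.9 CPM. Ribosome biogenesis leaned the other way, with 9 of 17 risen and 1 fallen (5 and 0 by DESeq2), led by the snoRNP protein *Nop56* from 26.0 to 88.7 and from 26.0 to 65.0 CPM. Of the disallowed genes, which mature β cells keep silent, only 3 of 20 were tested and all 3 rose, though 1 did without mixed barcodes and 1 against depth-matched cells, *Oat* from 12.1 to 35.9 and from 10.0 to 26.6 CPM. *Ldha* was too low to test, at 1.96 and 0 CPM in WT and 1.90 and 1.48 CPM in *Npc1*-/-.

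Nuclear-encoded genes of the respiratory chain included 10 risen and 2 fallen genes of 23 tested (median 0.16). *Atp5o* (ENSMUSG00000022956), a subunit of ATP synthase, rose from 118 to 229 CPM in WT and from 115 to 238 CPM in *Npc1*-/-, and *Cox6a2*, a muscle-type subunit of cytochrome c oxidase, fell from 23.7 to 6.38 and from 4.72 to 2.21 CPM. Endoplasmic reticulum genes moved the other way, with 11 of 20 fallen and 3 risen (median -0.19), or 7 and 1 by DESeq2. *Hspa5*, the chaperone BiP, fell from 776 to 623 and from 578 to 407 CPM, while *Ddit3* (CHOP) rose from 19.3 to 38.6 and from 15.5 to 26.2 CPM.

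Of sterol synthesis and uptake genes 9 of 19 fell and 1 rose (median -0.45), such as *Msmo1*, a sterol methyl oxidase, from 46.2 to 16.7 CPM in WT and from 56.0 to 32.9 CPM in *Npc1*-/-. Of 16 lysosomal genes 6 fell and 3 rose, with *Ctsl*, cathepsin L, from 158 to 71.1 and from 169 to 87.8 CPM. Immediate early and heat shock genes, which tissue dissociation is known to raise, fell in 9 of 13 and rose in 1. *Junb* fell from 87.4 to 32.8 and from 31.9 to 21.0 CPM, and *Hsp90aa1* rose from 272 to 730 and from 257 to 653 CPM. Of 10 tested p53 targets and apoptosis genes 2 rose and 3 fell (2 and 1 by DESeq2), *Trp53* rising from 19.7 to 39.5 and from 21.7 to 48.7 CPM.

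**Figure D4:**
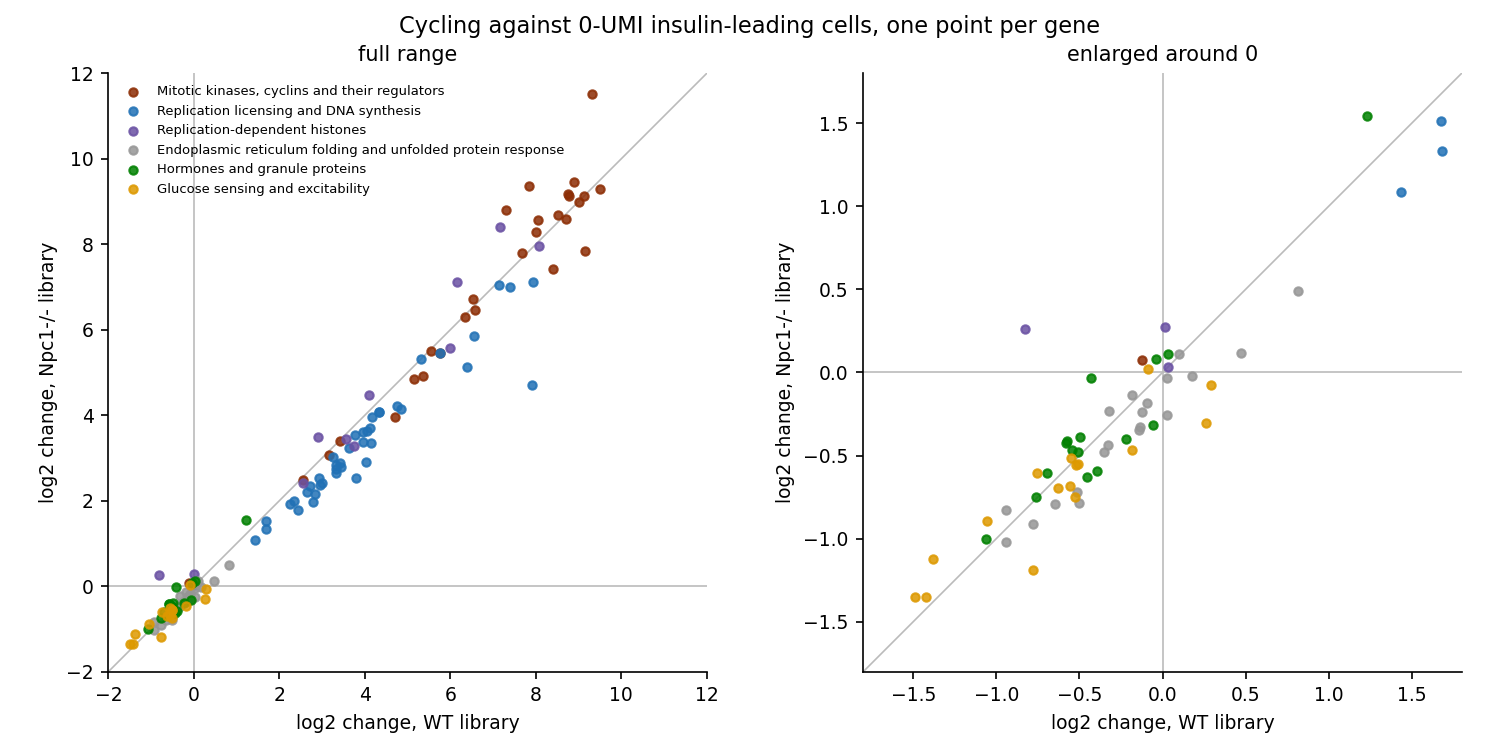
Log2 change of cycling against 0-UMI cells in the WT library (x axis) and in the *Npc1*-/- library (y axis), 1 point per tested gene of 6 lists (mitotic, replication, histone, endoplasmic reticulum, hormone and granule, glucose sensing), over the full range (left) and around 0 (right), with the line of equal change. The mitotic and replication genes lie far from 0 near the line, and most hormone, granule and glucose sensing genes lie below 0 in both libraries.

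Cycling glucagon-expressing cells, 96 in WT and 81 in *Npc1*-/-, were the other cycling class examined. The difference between cycling and 0-UMI cells was compared between the 2 hormone classes with an interaction term in edgeR over 8 sums. Of 9631 genes tested 24 (0.249%) had a higher and 37 (0.384%) a lower change in insulin-leading cells, so the test of the difference separated few genes. *Slc2a2* and *Nkx6-1* were among the lower ones. *Slc2a2* was low in glucagon-leading cells, at 8.62 and 7.77 CPM in 0-UMI and cycling WT cells and 5.72 and 9.67 CPM in *Npc1*-/- (interaction -1.56 ± 0.30 SE, adjusted p = 0.0369). *Nkx6-1* fell by 0.95 in insulin-leading cells, while in glucagon-leading cells it stood at 40.01 and 51.2 CPM in WT and 36.2 and 37.3 CPM in *Npc1*-/- (interaction -1.22 ± 0.15 SE, adjusted p = 0.00344). *Ccnd2* fell further in insulin-leading cells, from a lower level, than in glucagon-leading cells, which had 1336 and 1124 CPM in WT and 1305 and 989 CPM in *Npc1*-/- (interaction -0.65 ± 0.11 SE, adjusted p = 0.0142). The fall of *Ccnd1* was not shown to differ (interaction -0.39 ± 0.17 SE, adjusted p = 0.389).

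*Mt1*, metallothionein 1, had one of the clearest differences between the classes. It rose from 173 to 637 CPM in WT and from 214 to 643 CPM in *Npc1*-/- insulin-leading cells, and stood at 26.6 and 13.3 CPM and 32.6 and 26.2 CPM in glucagon-leading cells (interaction 2.07 ± 0.24 SE, adjusted p = 0.00224). *Mt1* had a UMI in 89 of 99 WT and 86 of 88 *Npc1*-/- members, and no member held more than 7.6% of its UMIs in its library. *Cit*, citron kinase of the midbody, started at 1.65 and 2.43 CPM in insulin-leading but at 59.8 and 52.2 CPM in glucagon-leading 0-UMI cells, and reached 60.2 and 66.8 CPM against 116 and 119 CPM (adjusted p = 1.40e-06). The other 4 of the 6 smallest p-values on this side were for *Fam81a*, *Smc2*, *Lockd* and *Epb41l2*, and those on the lower side for *Hist1h4i*, *Tubb2a*, *Hist1h4h*, *Nkx6-1*, *Prc1* and *Rrm2*. *Lockd* lies at chr6:134929092-134956798, downstream of *Cdkn1b* on the same strand.

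Inside cycling cells, *Npc1*-/- and WT were compared by the ratio of CPM centred on the median gene, with no test. Before centring, the median gene stood 0.15 higher on the log2 scale in *Npc1*-/- members, and 0.09 higher in 0-UMI cells. Of the 5047 genes that reached 20 CPM in members of a library, 49 (0.971%) were at least 2-fold higher and 37 (0.733%) at least 2-fold lower in *Npc1*-/-. The extremes rested on mixed barcodes. The 8 highest ratios were of *Col1a1*, *Mfap4*, *Col1a2*, *Col3a1*, *Mgp*, *Sparc*, *Vim* and *Rgs5*, genes of mesenchymal cells, and the 8 lowest of *Try5*, *Clps*, *Reg1*, *Pnliprp1*, *Ctrb1*, *Cela3b*, *Ctrl* and *Tff2*, genes of the exocrine pancreas and of mucus. For each of the latter a single WT member held from 99% to 100% of the UMIs. Without the 4 WT and 9 *Npc1*-/- mixed barcodes 40 of 5042 genes (0.793%) were at least 2-fold higher and 21 (0.417%) lower, and the ratios below are without them.

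Immediate early and heat shock genes were lower in the *Npc1*-/- library, in 11 of the 11 that reached 20 CPM in members, 6 of them by 2-fold or more (median -1.29). Some reached 20 CPM in WT alone, *Fosb* at 34.7 and 4.29 CPM, *Hspa1a* at 46.7 and 9.02 CPM and *Ier2* at 26.7 and 8.16 CPM. For these the limit favoured a lower value in *Npc1*-/-, so it partly set the counts. *Fos* stood at 120 CPM in WT and at 39.1 CPM in *Npc1*-/- members (log2 ratio -1.76, interval -2.11 to -1.43) and *Jun* at 158 and 61.0 CPM (-1.52, -1.81 to -1.26). The same ratios in 0-UMI cells were -1.92 and -1.65, so the difference was of like size in both classes. These genes respond to the dissociation of tissue, and the genotype and the preparation of its 1 library cannot be told apart.

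Replication genes were also mostly lower in *Npc1*-/- members. Of 37 genes 33 were below the median gene (median -0.40), against a median of -0.06 for the genes of this list in 0-UMI cells. *Mcm3*, a helicase subunit, stood at 58.2 CPM in WT and at 41.2 CPM in *Npc1*-/- members (-0.64, interval -1.02 to -0.28) with a ratio of 0.03 in 0-UMI cells, and *Pclaf*, a PCNA-binding factor, at 246 and 176 CPM (-0.63, -0.81 to -0.46). No replication gene differed by 2-fold. Replication-dependent histones went the other way, with 9 of 11 above the median gene (median 0.28, against -0.21 in 0-UMI cells). By cells, the share of members with at least 5 replication UMIs per 10000 was 81.8% in WT and 80.7% in *Npc1*-/-. With at least 10 it was 73.7% (63.9 to 82.1) and 61.4% (50.4 to 71.6), and with at least 20 it was 62.6% (52.3 to 72.1) and 44.3% (33.7 to 55.3), limits chosen after the values were seen. The libraries were thus close at the lowest limit and further apart at the highest. Mitotic genes lay closer to the median gene, with 22 of 26 below it and a median of -0.22, against -0.28 in 0-UMI cells. *Ube2c* had a ratio of -0.29 and *Cenpf* of 0.24 over all members. Members of WT were the deeper cells, and the part of depth in this difference was not tested.

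Of the 13 listed markers of immature and PP-family cells, 6 reached 20 CPM in members of a library, *Ppy* and *Pyy* included. The 4 that the rule for cells did not use were all higher in *Npc1*-/- members (median 0.80, against 0.26 in 0-UMI cells). Of these, *Cd79a* and *Rbp4* were 2-fold higher. *Cd79a* passed the limit only through the *Npc1*-/- library (21.0 CPM, with 6.68 CPM for WT). Its direction was therefore favoured by the limit, which partly set the tally of 4. *Ppy* and *Pyy*, which the rule compared with insulin, are given as a description. *Pyy* had a ratio of 1.05 (interval 1.02 to 1.09) in members and 0.68 in 0-UMI cells. *Ppy* was also above the median gene in *Npc1*-/- members, by less than *Pyy*. Its UMIs were 9127 in WT and 8752 in *Npc1*-/- members, before scaling to the smaller UMI total of *Npc1*-/- members. One WT member held 19.9% of the WT *Ppy* UMIs. The median ratio of the 2 genes was 0.64 in members and 0.77 in 0-UMI cells. Per cell, *Ppy* and *Pyy* together took a median of 14.2 UMIs per 10000 in WT members (range 1.92 to 806) and 52.5 in *Npc1*-/- members (1.69 to 1086), against 35.9 and 82.8 in 0-UMI cells, with wide overlap. *Txnip* was 2.27 higher on the log2 scale in *Npc1*-/- members (interval 1.81 to 2.78), at 14.6 CPM in WT and at 79.0 CPM in *Npc1*-/-, and 1.43 higher in 0-UMI cells. At least 1 UMI of it was seen in 33.3% of WT and in 62.5% of *Npc1*-/- members and, after thinning to 10000 UMIs, in 9.57% (4.47 to 17.4) and 40.7% (30.2 to 51.8), while 0-UMI cells had it in 37.2% and 56.9%. Endoplasmic reticulum genes were lower in 19 of 20 (median -0.53, against -0.38 in 0-UMI cells), with *Hspa5* at -0.86 (-0.98 to -0.75). The β cell transcription factors were centred near 0 (median 0.10, with 9 of 15 above).

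By the same rule, the 8 highest ratios without mixed barcodes were of *Sparc*, *Txnip*, *Col4a1*, *Pbxip1*, *Zc3h6*, *Ezh1*, *Cd79a* and *Kit*. All 8 reached 20 CPM in *Npc1*-/- members alone, so the limit admitted them only through the library where they were high. *Sparc* and *Col4a1*, genes of the extracellular matrix, still rested partly on 1 cell each, which held 40.4% and 36.5% of their UMIs in *Npc1*-/- members. *Kit*, a growth factor receptor, stood at 6.68 CPM in WT and at 20.6 CPM in *Npc1*-/- members, found in 18 and 25 of them. The 8 lowest were of *Fosb*, *Hspa1a*, *Gm47283*, *Ier2*, *Fos*, *Tnfaip8*, *Jun* and *Phgdh*. Of these, only *Fos* and *Jun* reached 20 CPM in members of both libraries. *Gm47283* is annotated on chromosome Y (chrY:90784738-90816464), though the mice are described as female. Its ratio was -1.89 in members and -1.96 in 0-UMI cells, and what it reflects was not tested. *Phgdh*, the first enzyme of serine synthesis, stood at 23.2 and 9.02 CPM in members and at 2.17 and 1.36 CPM in 0-UMI cells.

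**Figure D5:**
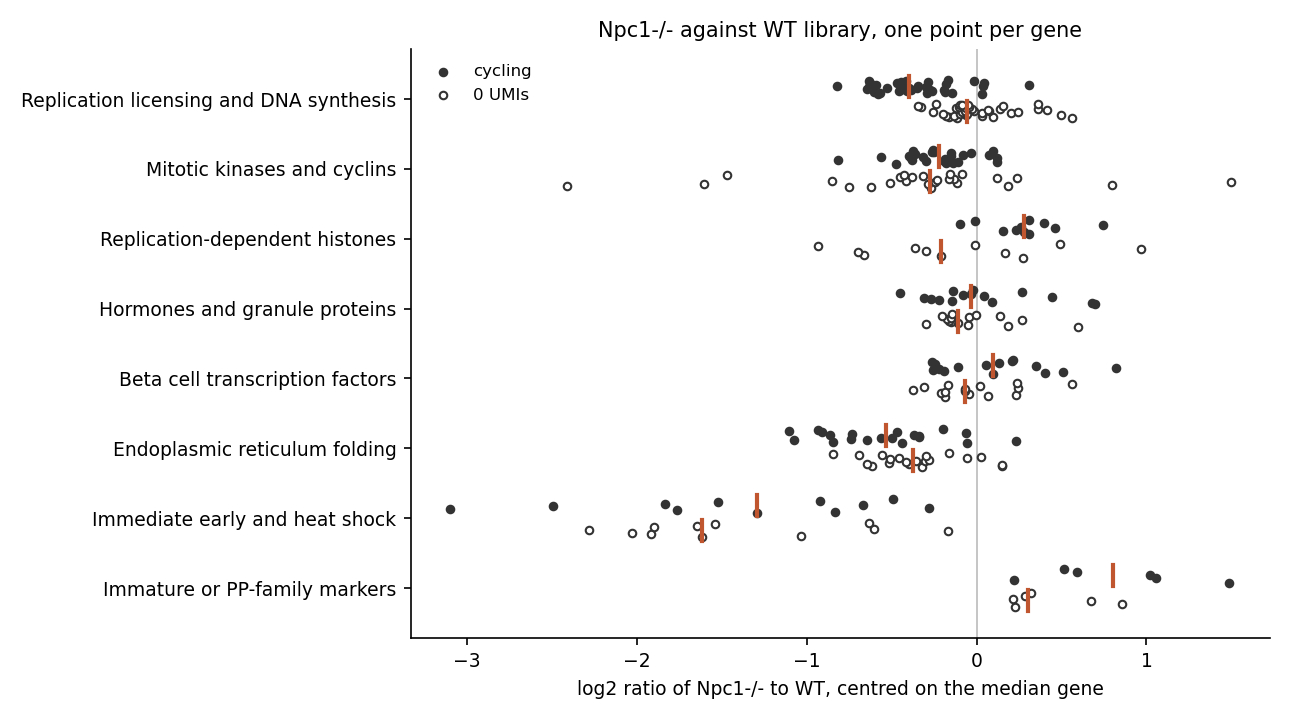
Log2 ratio of *Npc1*-/- to WT, centred on the median gene (x axis), for genes of 8 lists in cycling cells without mixed barcodes (filled) and in 0-UMI cells (open), with the median of each in orange. Immediate early genes lie far below 0 in both classes (medians -1.29 and -1.61), and replication genes lie below 0 in cycling cells (-0.40) and near 0 in 0-UMI cells (-0.06).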

How the data were processed

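Single cell 3′ libraries of islet cells were sequenced on the 10x Genomics platform. The deposited matrices hold UMI counts, which the authors made with Cell Ranger 3.1.0 on mm10 and filtered to cell barcodes (versions from the submitters' processing notes), with no normalization. The labels and the paper name different kit versions. A barcode had to have over 1000 genes, less than 50000 UMIs, mitochondrial genes under 10% and haemoglobin genes at most 0.1% of UMIs, which left 4628 of 8569 WT and 4269 of 7646 *Npc1*-/- barcodes. Deposited barcodes held 114324626 UMIs in WT and 127122035 in *Npc1*-/-. Doublets were not removed in the main analysis. As an alternative, the highest Scrublet scores (scanpy 1.11.5) were removed at a rate of 0.8% per 1000 barcodes (6 WT and 10 *Npc1*-/- members). The members, gene lists and comparisons were chosen with earlier results of these data known.

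UMI counts were summed per library and class and scaled to CPM for description. Cycling and 0-UMI cells were tested in R 4.3.3 with edgeR 4.0.16 (TMM, glmQLFit, library as a term, mean of at least 5 CPM, Benjamini-Hochberg over all genes tested), and the interaction with hormone class likewise. Each library pools 3 mice. The p-values use a spread common to genes of like level over the sums of these 2 libraries. They do not measure how far the libraries disagree on a single gene. Genotypes were compared without a test, from at least 20 CPM in either library, with 0.5 counts added and intervals that cover counting error only. Genes named were those that mark the class, *Npc1*, the 12 largest rises and falls of at least 20 CPM that went the same way in both libraries, the 8 highest and lowest genotype ratios, the 6 smallest interaction p-values on each side, and genes of the lists. On simulated counts the cycling fit over 9084 genes recovered 78.6% of 2-fold and 97.7% of 4-fold changes, with 2.79% of its calls unchanged genes, and the interaction fit over 9631 genes 51.6% and 90.3%, with 5.92%. The simulated counts had 1 fixed dispersion for all genes, 200 changed genes and no mixed barcodes. The data differ in each of these, so the percentages are not error rates of the calls made here. Alternatives were RLE factors, TMM without hormone genes, DESeq2 1.42.0, no filter on low counts, no library term, other UMI thresholds, depth-matched 0-UMI cells (3 per member), doublets or other hormones left out, a stricter cell filter, thinning and, added after seeing the data, mixed barcodes left out, a robust prior and calls that went the same way in both libraries. Promoters came from RefSeq and positions from GENCODE. Some genes are counted in their lists but not reported here by name. Where a symbol has more than 1 Ensembl gene, the named value is of the tested one.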

Additional observations from a re-analysis of the deposited data

Results flagged for a closer look

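In 15 genes that are named here or on the lists, the change from 0-UMI to cycling cells went in opposite directions in the WT and *Npc1*-/- libraries beyond counting error, and the difference was not tested. The log2 changes here are within a library after TMM scaling, so they differ from the ratio of the CPM values. *Gcg* had a change of -0.51 in WT and 1.30 in *Npc1*-/-, and *Ttr*, another α cell gene, -0.96 and 0.24. In *Npc1*-/- members 3 barcodes had at least 1000 *Gcg* UMIs, and without mixed barcodes *Gcg* stood at 458 CPM in WT and at 483 CPM in *Npc1*-/- members. Mesenchymal and matrix genes were lower in cycling cells of WT and higher in those of *Npc1*-/-. *Col1a1* had -4.67 and 5.25, *Col1a2* -4.72 and 3.25, *Col3a1* -4.42 and 3.44, and *Mfap4* -3.51 and 5.43. *Mgp* had -4.08 and 2.57, *Vim* -2.95 and 2.64, *Rgs5* -3.87 and 1.01, and *Sparc* -4.84 and 1.33. Without mixed barcodes *Col3a1* stood at 0.318 and 1.29 CPM and *Rgs5* at 0.636 and 5.58 CPM in members. Exocrine genes went the other way, with *Ctrb1* at 5.61 and -0.63, *Pnliprp1* at 5.87 and -0.98 and *Reg1* at 5.85 and -1.12. The remaining genes moved less. *Neurod1*, an endocrine factor, had -0.17 and 0.24, and *Ezh1*, a histone methyltransferase, -0.70 and 0.55.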

How the results depend on the processing

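No paired analysis was possible because each genotype has 1 library, but the library was a term in the test of cycling against 0-UMI cells. For the 2287 risen and 1909 fallen genes, DESeq2 gave 1378 and 810 and a fit without the library term 859 fallen, while all other alternatives stayed within 1.5 times. Among the 12 largest rises and the 12 largest falls, *Txnip* lost its call without the library term (adjusted p = 0.201) and with the robust prior (0.304), and *Cd79a* with the robust prior (0.201). Other named genes also lost a call, such as *Col4a1* with the robust prior (adjusted p = 0.709) and with DESeq2 (0.493). With DESeq2 so did *Tnfaip8* (adjusted p = 0.166), *Hist1h4i* (0.350) and *Tubb2a* (0.361). The interaction, with 24 higher and 37 lower genes, gave 191 and 108 with no filter on low counts, 40 higher with RLE factors and 43 higher with doublets removed. The WT share of members, 5.40%, was 6.60% with no upper limit on UMIs. Thinned to 10000 UMIs with 1 UMI required, it was 7.44% and the *Npc1*-/- share 6.96%. The ratio of shares stayed between 0.829 and 0.935. Genes 2-fold higher and lower in *Npc1*-/- members, 49 and 37, became 12 and 16 from 50 CPM, 75 were lower by the mean over cells, and 21 were lower without mixed barcodes. Without mixed barcodes the 8 lowest genes no longer reached 20 CPM, and their ratios are set largely by the 0.5 counts added and the centring (*Try5* 0.28 with 0 UMIs in both libraries, *Pnliprp1* and *Tff2* 0.28, *Clps* and *Cela3b* 1.505, *Ctrl* 3.09, *Reg1* 1.13, *Ctrb1* 0.69), so no difference in the other direction was measured. No replicate could be left out of a genotype, and depth limits genes under 5 CPM.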
